A study of Danio rerio with 7 samples.

Results

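The mRNA levels of 3 neurosecretory peptide genes, avp (arginine vasopressin, ENSDARG00000058567), uts1 (urotensin 1, ENSDARG00000014927) and gnrh2 (gonadotropin-releasing hormone 2, ENSDARG00000044754), were examined in zebrafish larvae held under hypoxia. They are 3 of the 25049 Ensembl genes with deposited counts, and all 3 passed the filter on low counts that left 23716 tested genes. The study listed them among hormone genes called up-regulated in this same comparison, so their levels, fold changes and calls describe values that chose them and are no independent test. The libraries were made from poly(A) RNA of whole wild-type larvae, exposed between 81 and 96 hpf (hours after fertilization) to 6% O2 (hypoxia, 3 libraries) or to 20.9% O2, the atmospheric level (normoxia, 4 libraries). Each library came from a pool of 30 larvae, so that differences between individual fish and between tissues were not resolved. More cells expressing a gene and more RNA per expressing cell cannot be told apart in such pools.

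Neurosecretory neurons make peptide hormones as larger precursors, cleave them in secretory granules and release them into blood or onto other neurons. The avp gene of fish encodes the precursor of vasotocin, the counterpart of mammalian vasopressin, which acts on water balance, blood pressure and social behavior and promotes pituitary ACTH release. The product of uts1, urotensin 1, belongs to the corticotropin-releasing factor (CRF) family, whose members act through CRF receptors in the control of the cortisol response to stress. The gnrh2 gene encodes the GnRH form that vertebrates make in a small group of midbrain neurons, and it has been linked to feeding and reproductive behavior rather than to direct control of the pituitary.

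The total count per library was 67083058 to 69920400 in hypoxia and 70275114 to 78235938 in normoxia. Levels are given as CPM (counts per 1000000 of the TMM-scaled library size), which do not correct for transcript length, so the genes are not ranked against each other by level. All 3 genes had low counts in the whole larva, and these too are not corrected for transcript length. Of the tested genes, 85.8% had a higher mean count than avp, 84.0% a higher one than gnrh2 and 68.8% a higher one than uts1.

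The avp gene had 86, 73 and 62 counts in hypoxia replicates 1 to 3, against 41, 55, 39 and 42 counts in normoxia replicates 1 to 4. On the CPM scale the hypoxia libraries stood at 1.28, 1.14 and 0.923, against 0.564, 0.711, 0.522 and 0.523 in normoxia. All hypoxia libraries lay above all normoxia libraries, and the gap between the nearest libraries of the 2 groups was 0.213 CPM. The mean was 1.11 ± 0.178 CPM (SD, n = 3) in hypoxia and 0.580 ± 0.0893 CPM (SD, n = 4) in normoxia, a 1.92-fold difference. On the log2 scale the fitted difference was 0.94 ± 0.19 (SE).

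The uts1 gene, the most counted of the 3, had 285, 294 and 346 counts in the hypoxia libraries, against 179, 239, 252 and 227 counts in the normoxia libraries. These correspond to 4.23, 4.61 and 5.15 CPM in hypoxia, against 2.46, 3.09, 3.37 and 2.83 CPM in normoxia. The groups did not overlap, although normoxia replicate 3 came within 0.857 CPM of hypoxia replicate 1. Means were 4.66 ± 0.465 CPM (SD, n = 3) in hypoxia and 2.94 ± 0.387 CPM (SD, n = 4) in normoxia. The fold change was 1.59, or 0.67 ± 0.12 (SE) on the log2 scale.

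The gnrh2 gene had 90, 104 and 103 counts in hypoxia replicates 1 to 3, against 51, 44, 40 and 60 counts in normoxia replicates 1 to 4. Its CPM was 1.34, 1.63 and 1.53 in hypoxia, against 0.702, 0.568, 0.535 and 0.747 in normoxia. The lowest hypoxia library was 0.588 CPM above the highest normoxia library, a gap close to the normoxia mean itself. The mean of 1.50 ± 0.150 CPM (SD, n = 3) in hypoxia and of 0.638 ± 0.102 CPM (SD, n = 4) in normoxia gave a 2.35-fold difference, or 1.23 ± 0.17 (SE) on the log2 scale.

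**Figure D1:**
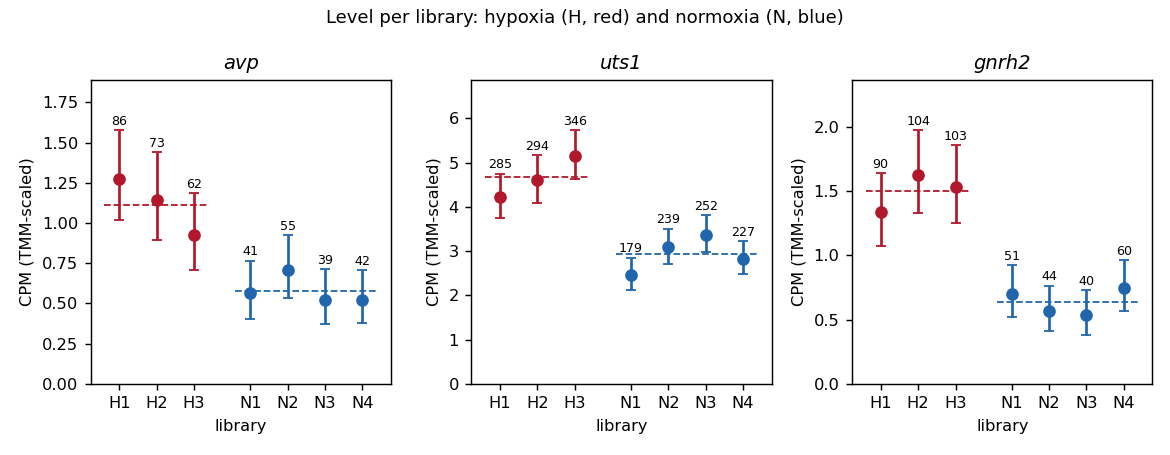
Level of avp, uts1 and gnrh2 in CPM (y axis, TMM-scaled) in each hypoxia (H, red) and normoxia (N, blue) library; bars are exact Poisson 95% intervals, dashed lines are group means and the numbers are raw counts. All hypoxia points lie above all normoxia points in each gene. The bars of some avp libraries reach into the other group, as do the uts1 bars of hypoxia replicate 1 and normoxia replicate 3.

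All 3 genes were called up-regulated in the edgeR fit (adjusted p under 0.05 from the quasi-likelihood test and log2 fold change over 0.6), as were 3.07% of all tested genes. Because this call is what placed them in the study's list, nothing is read from the count of 3. Likewise the groups were fully apart, with hypoxia higher, in 26.3% of all tested genes. By log2 fold change, gnrh2 exceeded 88.1% of the 729 up-regulated genes, avp 73.0% and uts1 27.3%. The uts1 gene passed the fold-change threshold of 0.6 by 0.066, while the genes nearest the threshold lay 4.6e-05 inside and 9.2e-05 outside it. The 95% interval of the log2 fold change ran from 0.52 to 1.36 for avp, from 0.40 to 0.93 for uts1 and from 0.85 to 1.60 for gnrh2.

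At the abundances of avp and gnrh2 counting error is a large part of the total error, and for uts1 it is a smaller part. An exact Poisson interval on the 62 avp counts of hypoxia replicate 3 spans 47.5 to 79.5 counts, and on the 55 counts of normoxia replicate 2 it spans 41.4 to 71.6 counts. Of the 12 pairs of a hypoxia and a normoxia library, 8 had avp intervals that did not touch, against 11 for uts1 and 12 for gnrh2. In hypoxia replicate 3, the weakest avp library of its group, a level equal to the normoxia mean would have given 38.9 counts, and 62 were observed. The same calculation gave 43.0 expected and 90 observed counts for gnrh2 in hypoxia replicate 1, its lowest hypoxia library.

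With the counts of a group summed, avp had 221 in hypoxia and 177 in normoxia, which gives a 1.92-fold ratio with a 95% interval from counting error alone of 1.57 to 2.35. For uts1 the sums were 925 in hypoxia and 897 in normoxia, a ratio of 1.59 (1.45 to 1.74). For gnrh2 they were 297 in hypoxia and 195 in normoxia, a ratio of 2.34 (1.95 to 2.82). These intervals rest on the conditional exact binomial test, cover no difference between pools, and take reads as independent molecules. The standard error of the log2 fold change from counting alone was 0.15 for avp, 0.07 for uts1 and 0.13 for gnrh2. The fitted standard errors were 1.30, 1.77 and 1.28 times as large for avp, uts1 and gnrh2.

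The spread between replicate pools was set against the spread that counting gives. The variance of depth-scaled counts divided by their mean, which is 1 for counting error only, was 1.88 in hypoxia and 1.05 in normoxia for avp. It was 0.993 in hypoxia and 1.25 in normoxia for gnrh2. For uts1 it was 3.06 in hypoxia and 3.89 in normoxia, so that its pools differed from each other by more than counting gives. The coefficient of variation of uts1 was 9.97% in hypoxia and 13.2% in normoxia, where counting alone gives 5.69% and 6.68% in the same groups. The biological coefficient of variation that edgeR assigned was 12.4% for avp, 10.2% for uts1 and 11.0% for gnrh2, against 7.85% in common over all genes. The edgeR trend for genes of the same abundance was 14.9% for avp, 10.2% for uts1 and 14.1% for gnrh2, so none of them lay above it.

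The 3 genes shared the direction of change, but not the order of the libraries within a group. In hypoxia avp was highest in replicate 1 and lowest in replicate 3, and uts1 was highest in replicate 3 and lowest in replicate 1. The gnrh2 gene was highest in replicate 2 and, like uts1, lowest in replicate 1. In normoxia the highest libraries were replicate 2 for avp, replicate 3 for uts1 and replicate 4 for gnrh2. The lowest were replicate 3 for both avp and gnrh2 and replicate 1 for uts1. The spread of gnrh2, and of avp in normoxia, was close to that of counting, so their orders may be noise. The counting intervals of avp in hypoxia replicates 1 and 3 also overlapped. On the first principal component of all genes, hypoxia replicates 1, 2 and 3 lay 48.3, 66.6 and 81.1 units from the normoxia mean. Thus avp was highest in the hypoxia library nearest to normoxia and uts1 in the one farthest away.

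Ratios of raw counts within a library do not depend on scaling and compare the sizes of the changes. There were 2.83 to 3.36 uts1 counts for each gnrh2 count in hypoxia libraries and 3.51 to 6.30 in normoxia libraries, ranges that did not overlap. The log2 fold change of uts1 was lower than that of gnrh2 by a difference of -0.56, with a standard error from counting of 0.15. The ratio of avp to uts1 counts was 0.179 to 0.302 in hypoxia and 0.155 to 0.230 in normoxia, and that of avp to gnrh2 was 0.602 to 0.956 in hypoxia and 0.700 to 1.25 in normoxia. Both of these overlapped between the groups. The difference in log2 fold change was 0.27 between avp and uts1 (counting standard error 0.16) and -0.29 between avp and gnrh2 (0.20), both less than 2 such errors. Counting errors leave out the spread between pools. The fitted standard errors of the single genes were 1.28 to 1.77 times those from counting, so all 3 differences are less certain than these errors state. They were not tested.

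Markers of neurons as a class were measured beside these genes. Elavl RNA-binding proteins (elavl3, elavl4), synaptic proteins (both SNAP25 genes, syt1a, sncb) and growth-cone stathmins (both STMN2 genes) formed a list of 8. All 8 were higher in hypoxia at an adjusted p under 0.05, which 24.6% of all tested genes passed in that direction, but none reached the log2 threshold of 0.6 in edgeR or in DESeq2. Their median log2 fold change was 0.38, with a range of 0.24 to 0.53, against a median of -0.00438 over all tested genes. None of the 8 is at or near 0: their summed level was 2788 to 3193 CPM in hypoxia and 2175 to 2335 CPM in normoxia, 1.32-fold higher. Proteins and enzymes of neuroendocrine granules were listed in the same way. All 6 of these (scg2b, scg3, chga, pcsk1, pcsk2 and cpe) were higher at an adjusted p under 0.05, with a median log2 fold change of 0.37, and their sum was 1042 to 1214 CPM in hypoxia and 788 to 876 CPM in normoxia. In relation to the granule markers within a library, gnrh2 was 1.76-fold, avp 1.46-fold and uts1 1.19-fold higher in hypoxia, and the avp groups overlapped. The neuron markers are set against the same genes next.

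In relation to 1000 CPM of the 8 neuron markers, gnrh2 stood at 0.479 to 0.549 in hypoxia and 0.239 to 0.323 in normoxia, a 1.78-fold difference without overlap. The uts1 level was 1.52 to 1.61 in hypoxia and 1.13 to 1.51 in normoxia on this scale, 1.21-fold higher, with the nearest libraries almost touching. The avp level was 0.289 to 0.458 in hypoxia and 0.225 to 0.304 in normoxia, 1.48-fold higher, and the groups overlapped through hypoxia replicate 3. When the fit across all genes was scaled to the summed counts of these markers, an alternative chosen after seeing the data, the log2 fold change was 0.83 for gnrh2, 0.56 for avp and 0.27 for uts1, with standard errors of 0.17, 0.21 and 0.11 in that order. This scale lowers the log2 fold change of every gene by a similar amount, because the marker sum was itself 1.32-fold higher in hypoxia. On it gnrh2 was called, and avp and uts1 were not. The share of all tested genes called on this scale is not given, so nothing is read from these calls.

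**Figure D2:**
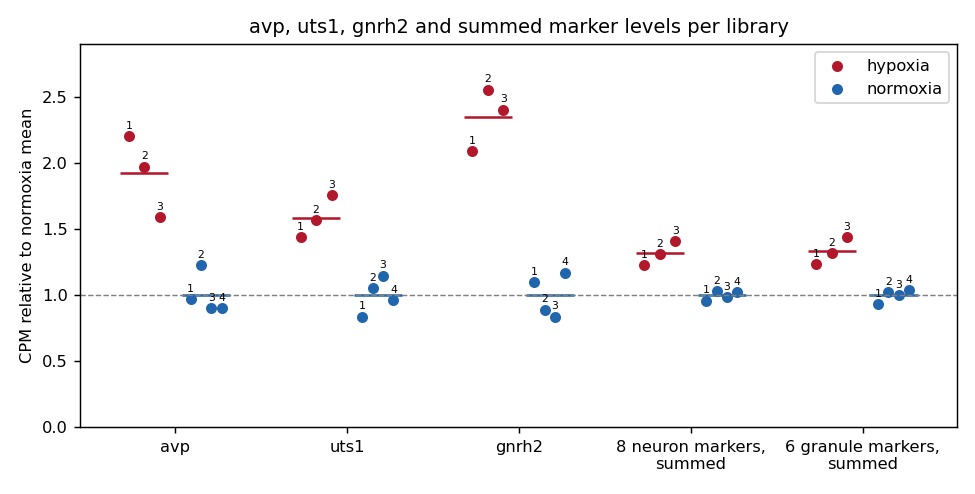
CPM of avp, uts1 and gnrh2 and of 2 summed marker lists in each library, divided by the normoxia mean (y axis; hypoxia red, normoxia blue, digits are replicate numbers, bars are group means). The hypoxia means are 1.92, 1.59 and 2.35 for the peptide genes and 1.32 and 1.33 for the neuron and granule markers. The avp level is highest in the library where the markers are lowest among the hypoxia libraries, but its counting intervals in hypoxia replicates 1 and 3 overlap.

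Other tissues in the whole larva moved both ways. Of 4 pituitary hormone genes (prl, gh1, pomca and tshba), 3 were higher in hypoxia at an adjusted p under 0.05, as were 24.6% of all tested genes. The 4 summed to 16.8 to 17.0 CPM in hypoxia and 11.0 to 12.5 CPM in normoxia. The summed liver markers fabp10a and tfa stood at 152 to 461 CPM in hypoxia and 645 to 789 CPM in normoxia, and both were called lower, as were 7.45% of all tested genes. The muscle markers actc1b and ckma summed to 27753 to 28338 CPM in hypoxia and 21937 to 23121 CPM in normoxia. Both were higher at an adjusted p under 0.05, again as were 24.6% of all tested genes. The glial markers gfap and mbpa summed to 351 to 420 CPM in hypoxia and 339 to 355 CPM in normoxia, and neither passed in edgeR, although both had an unadjusted p under 0.05 and 1 passed in DESeq2. Of 5 listed interrenal markers, 2 could be used, star and cyp17a1, an enzyme of steroid synthesis. The star gene did not pass. The cyp17a1 level fell by 0.58 on the log2 scale with an adjusted p of 0.00046 from edgeR's quasi-likelihood test. The sum of star and cyp17a1 was 10.3 to 15.0 CPM in hypoxia and 15.7 to 18.9 CPM in normoxia. The part of these tissues in the peptide results was not tested.

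The other genes of the 3 hormone systems show whether ligands, receptors and targets moved together with the peptides. The lists hold known parts of each system, were set with earlier results of these data known, and were read from the edgeR fit across all genes. Of 38 tested genes in 3 lists, 2 were called up-regulated and 0 down-regulated by edgeR, as were 3.07% and 7.45% of all tested genes. DESeq2 also called 2 and 0 of the 38, against 2.91% and 7.1% of all tested genes. Before adjustment, a p under 0.05 was reached in edgeR by 17 genes that were higher in hypoxia and by 3 that were lower, as it was by 27.8% and 28.4% of all tested genes. An adjusted p under 0.05 alone was reached by 13 genes that were higher in hypoxia and by 1 that was lower, where 24.6% and 25.1% of all tested genes passed in these directions. The median log2 fold change was 0.25 over the 38 genes, against -0.00438 over all tested genes. It was 0.38 for the neuron markers, 0.37 for the granule markers and 0.52 for the pituitary markers given above. A rise of the hormone systems apart from these classes was not tested.

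In the vasopressin and oxytocin system, 12 genes were tested and 0 were called, by edgeR or by DESeq2. At an unadjusted p under 0.05 in edgeR, 4 of them were higher and 2 lower, as were 27.8% and 28.4% of all tested genes. Past the adjusted p 3 were higher and 1 lower, as were 24.6% and 25.1% of all tested genes. Nothing is read from these counts. The closest relative of avp, oxt, which encodes isotocin, the oxytocin-like hormone of fish, had 4.42 ± 0.392 CPM (SD, n = 3) in hypoxia and 3.33 ± 0.415 CPM (SD, n = 4) in normoxia. The log2 difference was 0.41 ± 0.12 (SE), with an adjusted p of 0.013 in edgeR's quasi-likelihood test that became 0.071 without hypoxia replicate 2. Both OTP genes (ENSDARG00000014201 and ENSDARG00000058379), homeobox factors needed for the formation of neuroendocrine neurons of the hypothalamus, were also higher, by 0.35 and 0.34 on the log2 scale with adjusted p of 0.00057 and 0.0015 from the same test. The sim1a and sim1b factors of the same lineage were at -0.12 and 0.04 and did not pass, and the sign of sim1b turned under scaling by library size alone. The oxt and OTP values lie within the range of the neuron markers, 0.24 to 0.53.

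Among the receptors of vasotocin, avpr2aa was the one to pass the adjusted p, and it was lower. The 2 AVPR1A genes, receptors of the V1a type, had log2 fold changes of 0.17 and 0.13 and did not pass. A receptor of the V2 type, avpr2aa, had 147, 149 and 135 counts in hypoxia, against 240, 224, 228 and 207 in normoxia. All hypoxia libraries lay below all normoxia libraries, which 26.5% of tested genes showed, and the level fell by 0.44 on the log2 scale (SE 0.12; edgeR quasi-likelihood test, adjusted p = 0.0097). No other gene of the 3 lists was lower past the adjusted p in this fit. The OXTR genes, isotocin receptors, were at 0.26 (ENSDARG00000033956) and -0.52 (ENSDARG00000044175) with standard errors of 0.19 and 0.27, and did not pass.

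In the CRF family and stress axis, 16 genes were tested apart from ucn3l, of which 7 were higher past the adjusted p and 0 lower in edgeR and in DESeq2. At an unadjusted p under 0.05 in edgeR, 10 were higher and 1 lower. Of all tested genes, 24.6% were higher and 25.1% lower past the adjusted p in edgeR, and 27.8% and 28.4% at the unadjusted p. The called gene was crhbp, which encodes the CRF-binding protein, a secreted protein that sequesters CRF and urotensin 1. It had 1277, 1438 and 1676 counts in hypoxia, against 1012, 1120, 1044 and 1203 in normoxia. The log2 difference was 0.63 ± 0.08 (SE; edgeR quasi-likelihood test, adjusted p = 0.00019). Without hypoxia replicate 3 it was 0.53, as it was with scaling by library size alone, and the call was lost in both. The call of crhbp was lost with the threshold of 0.6 inside the test too. The CRF gene crhb itself had 5.53 ± 0.844 CPM (SD, n = 3) in hypoxia and 3.79 ± 0.266 CPM (SD, n = 4) in normoxia, a log2 difference of 0.54 with an adjusted p of 0.0026 in edgeR. The receptor crhr1 was higher by 0.25 on the log2 scale (adjusted p = 0.036 in edgeR). That p was 0.17 under scaling by library size alone and 0.064 to 0.14 without hypoxia replicate 2 or 3 or normoxia replicate 1, 2 or 4. The other receptor, crhr2, was at 0.60 with a standard error of 0.31 on 13 to 31 counts per library and did not pass. The urotensin 2 genes uts2a and uts2b, whose peptides belong to another family despite their name, were at 0.40 and 0.65 with standard errors of 0.17 and 0.28 and did not pass, and uts2b passed without hypoxia replicate 1 (0.92, adjusted p = 0.0098 in edgeR).

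The closest relative of uts1 on the study's list was ucn3l (urocortin 3-like, ENSDARG00000087241), another CRF-family peptide. It was chosen from this comparison in the same way, so its values are a description as well. It had 83, 96 and 103 counts in hypoxia, against 60, 54, 53 and 58 in normoxia. The groups did not overlap, and the log2 difference was 0.95 ± 0.15 (SE).

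Downstream of CRF, pomca, the ACTH precursor gene of the pituitary, was higher in hypoxia by 0.49 on the log2 scale (adjusted p = 0.0080 in edgeR). Its paralog pomcb, at 15 to 38 counts per library, had the highest value of this list, 0.68 with a standard error of 0.29. It did not pass (adjusted p = 0.071 in edgeR), but was called with the replicate number as a block (0.85, adjusted p = 0.041 in edgeR). Also past the adjusted p were pcsk1 (0.57, 0.00015 in edgeR) and hsd11b2 (0.18, 0.023 in edgeR, 0.25 with scaling by library size alone). The enzyme that completes cortisol synthesis, cyp11c1, had 10.4 ± 0.859 CPM (SD, n = 3) in hypoxia and 7.03 ± 0.722 CPM (SD, n = 4) in normoxia, a log2 difference of 0.57 with an adjusted p of 0.00057 in edgeR. In the other direction along this axis stands cyp17a1, given above. The cholesterol transporter star, at -0.05 with a standard error of 0.19, did not pass. Among genes that respond to glucocorticoids, fkbp5 was at -0.20 (standard error 0.09) and tsc22d3 at -0.02 (0.07), and neither passed, though fkbp5 did when scaled by library size alone and without normoxia replicate 1 (-0.29, adjusted p = 0.00067 in edgeR). The receptors nr3c1 and nr3c2 were at 0.05 and -0.09 and did not pass. The sign of nr3c1 turned under scaling by library size alone.

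In the GnRH and reproductive axis, 10 genes were tested, of which 3 were higher past the adjusted p and 0 lower in edgeR, against 2 and 0 in DESeq2. At an unadjusted p under 0.05 in edgeR the counts were also 3 and 0. Of all tested genes, 24.6% were higher and 25.1% lower past the adjusted p in edgeR, and 27.8% and 28.4% at the unadjusted p. The other GnRH gene, gnrh3, made by terminal nerve and hypothalamic neurons that control reproduction, had 2.65 ± 0.373 CPM (SD, n = 3) in hypoxia and 2.05 ± 0.276 CPM (SD, n = 4) in normoxia. The groups overlapped, with a log2 difference of 0.37 ± 0.14 (SE), and its adjusted p of 0.047 in edgeR became 0.052 with DESeq2, 0.13 with scaling by library size alone and 0.074 to 0.20 without hypoxia replicate 1 or 2 or normoxia replicate 1, 2 or 4. The receptors gnrhr2 and gnrhr4 were at 0.46 and 0.25, with standard errors of 0.25 and 0.15, and did not pass. The called gene of this list was tac3b, a neurokinin B-family precursor, with 135, 99 and 140 counts in hypoxia, against 82, 87, 83 and 112 in normoxia. Its log2 difference was 0.66 ± 0.15 (SE; edgeR quasi-likelihood test, adjusted p = 0.0043). Without hypoxia replicate 3 it was 0.58, and with scaling by library size alone 0.56, and the call was lost in both. The call of tac3b was lost with the threshold of 0.6 inside the test too. Its paralog tac3a was higher by 0.33 (adjusted p = 0.028 in edgeR), and that p was 0.099 with scaling by library size alone, 0.14 without hypoxia replicate 3 and 0.063 without normoxia replicate 1. The kisspeptin genes kiss1 and kiss2, at 5 to 35 counts per library, did not pass. The gonadotropin gene fshb had 0 to 18 counts per library and was removed by the filter on low counts.

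**Figure D3:**
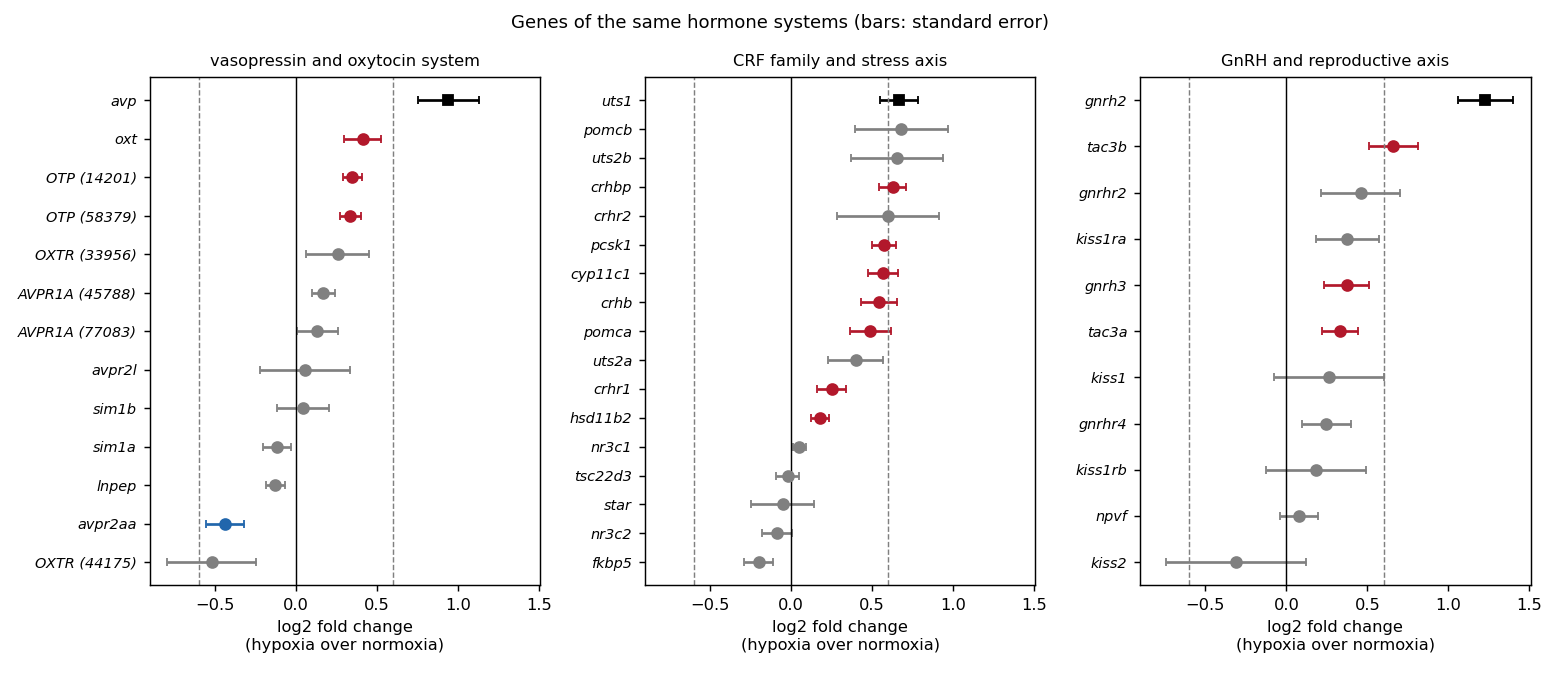
Log2 fold change, hypoxia over normoxia (x axis, bars are standard errors), of avp, uts1 and gnrh2 (black squares, chosen on these values) and of the tested genes of each hormone system. Red points were higher and blue points lower at an adjusted p under 0.05 in edgeR, grey points did not pass, dashed lines mark 0.6 in both directions, and digits after OTP, OXTR and AVPR1A are the last digits of the identifier. The peptide genes avp and gnrh2 stand to the right of the other genes drawn for their systems, a place that their choice favored and that is no test. The uts1 gene does not, as pomcb is at 0.68 with a standard error of 0.29. The ucn3l gene, chosen in the same way as the peptide genes, is not drawn.

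The rise of avp, uts1 and gnrh2 in hypoxia was shared by many genes. Between the 3 genes, r of log2 CPM was 0.80 for avp and uts1, 0.86 for avp and gnrh2 and 0.83 for uts1 and gnrh2 over the 7 libraries. With the group means removed it was -0.31, -0.39 and -0.47, so the positive values came from the group difference. With 7 libraries, and with avp and gnrh2 at low counts, a shared pattern within the groups can be neither shown nor excluded. Of 20600 other genes that averaged 50 or more counts, the 2 whose log2 CPM had the highest mean correlation with the 3 genes were nppcl2 (natriuretic peptide C-like 2, mean r = 0.94, n = 7 libraries) and ptp4a3a, a protein tyrosine phosphatase gene (mean r = 0.94). These correlations run over libraries of both groups and so contain the difference between hypoxia and normoxia, and 1437 genes had a mean r of at least 0.9. The nppcl2 level was 17.3 ± 0.305 CPM (SD, n = 3) in hypoxia and 9.11 ± 0.709 CPM (SD, n = 4) in normoxia while ptp4a3a averaged 112 CPM in hypoxia and 73.4 CPM in normoxia. The granule protein gene vgf (ENSDARG00000105529), made by neuroendocrine cells and far more abundant in counts, was at 0.68 ± 0.09 (SE) on the log2 scale, next to 0.67 for uts1. Its identifier was taken from the study, and it too was called up-regulated in this comparison, 0.085 over the threshold. Its value is therefore a description and no independent comparison for uts1.

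The fold changes were recomputed under other settings. Since the calls chose the genes, their counts over settings show only how the choice depended on the processing. Over 16 settings, gnrh2 was called in 16, avp in 14 and uts1 in 11. The call of avp was lost when the threshold of 0.6 was placed inside the test and when scaling followed the neuron markers. The call of uts1 was lost under these settings too, and its log2 fold change was 0.57 with scaling by library size alone, 0.58 without hypoxia replicate 3 and 0.59 without normoxia replicate 1. When single libraries were omitted, the log2 difference ran from 0.83 to 1.06 for avp, from 0.58 to 0.74 for uts1 and from 1.15 to 1.32 for gnrh2.

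**Figure D4:**
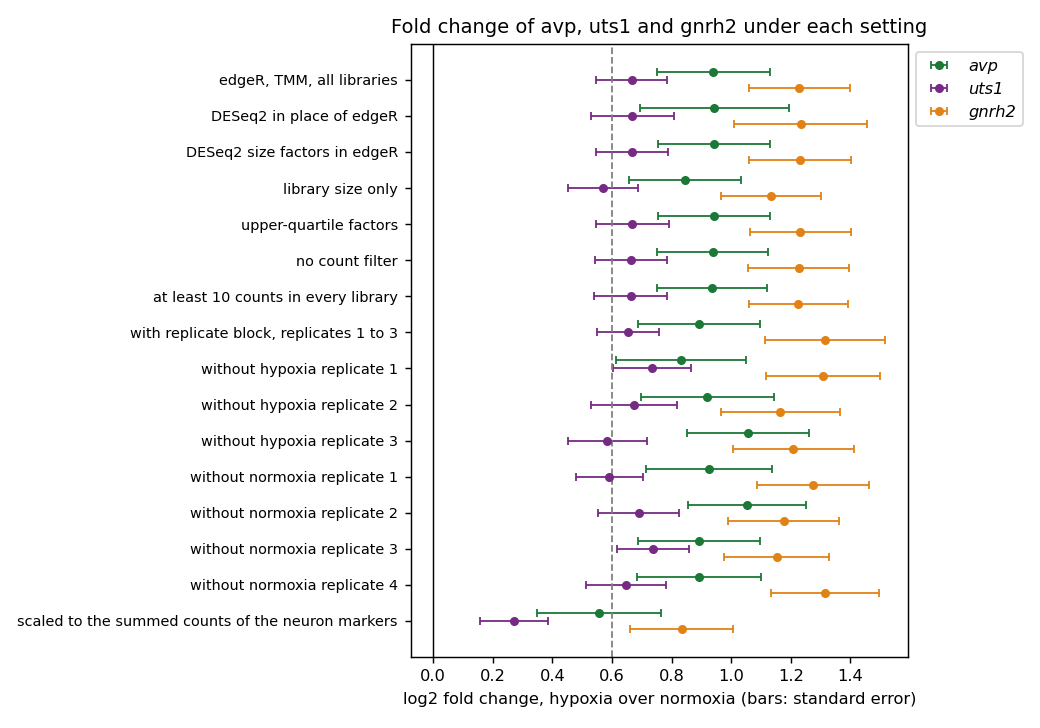
Log2 fold change, hypoxia over normoxia (x axis, bars are standard errors), of avp, uts1 and gnrh2 under each setting (rows); the dashed line marks the log2 threshold of 0.6. The gnrh2 points stay to the right of the line in all rows, and the uts1 points lie on both sides of it. Scaling to the neuron markers, whose sum was 1.32-fold higher in hypoxia, moves every gene left by construction. On that scale uts1 is at 0.27.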

How the data were processed

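Poly(A) RNA-seq libraries of 3 hypoxia and 4 normoxia pools of 30 larvae were analysed, grouped by their labels. The authors trimmed reads with Trimmomatic 0.39, aligned them to GRCz11 with STAR 2.7.10 and assigned them to Ensembl genes with featureCounts 2.0.7. The deposited values are raw counts, whole numbers that were not normalized. The strand setting and the handling of reads that map to several places are not given in the sources used here. No gene in the table totals under 10 counts. Replicate pairs differed by more than sampling noise (chi-square per degree of freedom 7.04 to 20.9 in 9 pairs).

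The quasi-likelihood model of edgeR 4.0.16 under R 4.3.3 was fitted after filterByExpr and TMM scaling (glmQLFTest, Benjamini-Hochberg adjustment over 23716 genes), with the thresholds of the study's methods, an adjusted p under 0.05 and an absolute log2 fold change over 0.6. Standard errors are the absolute log2 fold change over the square root of F. Intervals on counts are exact Poisson at 95% and cover counting error only, and 3 counts, taken as the floor, equal 0.0383 to 0.0447 CPM. On simulated counts of 23716 genes under this comparison, 99 of 100 genes changed by 1 on the log2 scale were recovered. Recovery was 100 of 100 for genes changed by 1.5, and 7 unchanged genes were called. The changed genes were drawn from those that averaged 50 or more counts, so lower counts and smaller changes are not covered.

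Symbols were paired with identifiers through a table of gene names, which held 23250 of the 25049 genes and gives many genes under the human symbol (CRH for crhb), and lists were matched by symbol. Of the listed genes, 12 of 16, 17 of 20 and 11 of 15 were used for the vasopressin, CRF and GnRH lists. Of these, pomca, pcsk1 and star stand in a marker list as well. Of the markers, 4 of 6 pituitary, 6 of 7 granule, 2 of 5 interrenal and 2 of 3 glial genes were used, and all neuron, liver and muscle genes. In the RefSeq annotation of GRCz12tu, 0 genes overlap avp, uts1 or gnrh2. Sequences were not used here. Named were avp, uts1 and gnrh2, ucn3l and vgf, the called and the most counted genes of each list, and the 2 genes most alike over the libraries; further list genes were named after their values were seen. These genes and lists were chosen with earlier results of these data known. Alternatives were DESeq2 1.42.0, other scalings and count filters, the threshold inside the test, the replicate number as a block, each library left out, and, added after seeing the data, scaling to neuron markers.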

Additional observations from a re-analysis of the deposited data

Results flagged for a closer look

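In normoxia, tac3b stood at 1.39 CPM in replicate 4 and at 1.11 to 1.13 CPM in replicates 1 to 3, and the gap between replicate 4 and the nearest library was 0.938 of the group's range. Of 7 genes examined in this way (avp, uts1, gnrh2, ucn3l, vgf, crhbp and tac3b) this was the 1 library set apart, and chance sets apart about 1 group in 20. Without normoxia replicate 4 the log2 fold change of tac3b was 0.75, with it 0.66.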

How the results depend on the processing

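Of 45 recomputed log2 fold changes of avp, uts1 and gnrh2, 42 moved by less than the spread between replicates and none changed sign. The exceptions were those scaled to the neuron markers, an alternative added after seeing the data that lowers every gene by construction. They were 0.56 for avp, 0.27 for uts1 and 0.83 for gnrh2, where 1 of the 3 was called. The share of all tested genes called on that scale is not given. With the threshold inside the test, 1 of the 3 was called, with 133 genes called higher and 167 lower in all and 0 genes of the hormone systems. When only library size was used for scaling, all genes had a median log2 fold change of -0.10. With it 427 genes were called higher, 14.7% of the calls in place of 29.2%. Of the hormone systems 0 genes were called, and 3 were lower past the adjusted p alone. The share of all tested genes past it is not given for this scaling, so nothing is read from the 3.

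With each library left out in turn, 2 to 3 of the 3 genes were called, log2 fold changes ran from 0.83 to 1.06 (avp), 0.58 to 0.74 (uts1) and 1.15 to 1.32 (gnrh2), and 576 to 913 genes were called higher and 1271 to 2266 lower. Of the hormone systems 0 to 5 genes were called, 0 without hypoxia replicate 3 and 5 without hypoxia replicate 1, 10 to 13 were higher past the adjusted p alone and 1 to 2 lower, 2 without normoxia replicate 1 and 2 without normoxia replicate 4. The shares of all tested genes past the adjusted p alone are not given for these fits, so nothing is read from the list counts past it. The causes were not tested.

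In a fit of replicates 1 to 3 with replicate block, the log2 fold changes were 0.89 (avp), 0.65 (uts1) and 1.32 (gnrh2), 827 genes were called higher, and 4 genes of the hormone systems were called, with 2 lower past the adjusted p alone. The same libraries without the block, which are those left without normoxia replicate 4, gave 3 and 2. Here too the shares of all tested genes past the adjusted p alone are not given. Same-numbered libraries deviated together at r = 0.190, 0.0520 and 0.0211 for numbers 1, 2 and 3, so the numbers were not taken to pair the pools. Depth limits avp and gnrh2, with 39 to 104 counts per library.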
